A study of Mus musculus and Bos taurus with 26 samples.

Results

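The genes described here are the developmental homeobox genes outside the Hox clusters, in mouse 2-cell embryos in which Hdac1 or Hdac2 was disturbed and in cattle embryos treated with an inhibitor of these enzymes. They were taken by symbol, with no filter on level: the families Nkx1 to Nkx6, Pitx, Pax, Lhx, Dlx, Msx, Irx, the SINE genes, Vax, Otx, Emx, Barhl, Barx, Gbx, Meis, Pbx, Alx, Prrx and En, and Bsx. That gave 82 of the 27988 genes measured in mouse and 79 of the 21577 measured in cattle.

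Homeobox genes encode transcription factors that bind DNA through a homeodomain, and most of those named here set up regions, organs or cell types long after implantation. In preimplantation embryos many of them are silent and lie under Polycomb repression. HDAC1 and HDAC2 are histone deacetylases of several corepressor complexes. By homeodomain class, 36 of the mouse genes were ANTP (Nkx, Dlx, Msx, Vax, Emx, En, Gbx, Barhl, Barx, Bsx), 19 PRD (Pax, Pitx, Otx, Alx, Prrx), 8 LIM (Lhx), 13 TALE (Irx, Meis, Pbx) and 6 SINE (such as Six2 and Six3).

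Mouse embryos carried injected mRNA for mutant Hdac1 (late and early), wild-type (WT) Hdac1 (late and early), mutant or WT Hdac2, or only water; the mutations are not given in the labels. Other zygotes given mutant Hdac1 mRNA were injected again at the early 2-cell stage, in both blastomeres, with Kdm5b mRNA or water. A last pair of mouse groups grew in 50 nM FK228, which blocks class I histone deacetylases, or in its solvent DMSO. Late 2-cell embryos were taken at 36 h and early ones at 24 h after fertilization. Cattle embryos grew in 50 nM FK228 or in DMSO and were collected at the 8/16-cell stage, at 72 h. Inhibitor and solvent were given from the zygote stage. Each of the 13 groups had 2 libraries; the labels do not say how many embryos went into one, or whether replicates came from separate collections, so p-values measure the spread between libraries, which may be technical. Bulk RNA of embryos cannot tell fewer cells of a type from less RNA per cell. Values are the deposited FPKM, which divide by gene length, so levels of different genes can be compared.

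Of the 82 genes, 70 reached 1 FPKM in at least 2 libraries and were tested among 17336 mouse genes; 40 did so within the 10 libraries of water, WT and DMSO embryos alone. In cattle 64 of 79 were tested among 12590 genes, and 53 passed in the 2 DMSO libraries alone. A gene that passed only through a group where it is high had to differ, so counts are given over all 82 or 79 genes as well. The 12 mouse genes left out reached at most 1.69 FPKM (Meis3) in any library.

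The injected mRNAs stood out where the labels put them: Hdac1 was at 4952 and 4612 FPKM in Hdac1 mutant late embryos and 2707 and 2960 in Hdac1 WT embryos, against 92.2 and 89.3 in water embryos. In the mutant plus water embryos it was at 917 and 805. In early embryos the order of Hdac1 was reversed, at 4007 and 2952 in mutant and 7253 and 4519 in WT libraries. Hdac2 was at 2443 and 2292 in Hdac2 mutant and 1775 and 1462 in Hdac2 WT embryos. The mouse libraries held 10704 to 14554 genes at 1 FPKM or more, and replicates correlated across genes with r from 0.955 to 0.989. Among 12 markers of cumulus and granulosa cells the sum was 12.7 and 18.5 FPKM in Hdac1 mutant, against 0.477 and 1.95 in Hdac1 WT late embryos, and Foxl2 and Vim held the largest part; their part in the results was not tested. The highest level in any mouse library was 16.8 FPKM for Foxl2, 8.78 for Vim, 4.5 for Cyp19a1 and 2.13 for Cyp11a1. It was 0.106 FPKM for the follicle cell marker Fshr, the lowest of the 12.

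Of the 250 bases upstream of a start, with each CG in capitals, 4 windows are shown for genes that rose in all 4 late mouse comparisons and 1 for a gene below the level filter. They are RefSeq windows on GRCm38.p6, 5′ to 3′ in the direction of the gene, at chr5:37824586-37824835 for Msx1, chr2:36105409-36105658 for Lhx6, chr5:33434091-33434340 for Nkx1-1, chr9:40873877-40874126 for Bsx (plus strand, the other 4 minus) and chr2:24475600-24475849 for Pax8.
Msx1: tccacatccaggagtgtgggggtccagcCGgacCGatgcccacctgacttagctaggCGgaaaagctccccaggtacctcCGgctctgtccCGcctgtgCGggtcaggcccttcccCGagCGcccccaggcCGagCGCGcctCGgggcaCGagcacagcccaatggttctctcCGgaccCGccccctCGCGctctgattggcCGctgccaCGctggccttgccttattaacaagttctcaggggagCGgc
Lhx6: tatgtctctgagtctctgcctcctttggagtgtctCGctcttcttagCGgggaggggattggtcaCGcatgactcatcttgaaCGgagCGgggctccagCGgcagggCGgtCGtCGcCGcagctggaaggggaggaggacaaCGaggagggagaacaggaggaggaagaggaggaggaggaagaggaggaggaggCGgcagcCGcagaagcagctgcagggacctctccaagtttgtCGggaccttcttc
Nkx1-1: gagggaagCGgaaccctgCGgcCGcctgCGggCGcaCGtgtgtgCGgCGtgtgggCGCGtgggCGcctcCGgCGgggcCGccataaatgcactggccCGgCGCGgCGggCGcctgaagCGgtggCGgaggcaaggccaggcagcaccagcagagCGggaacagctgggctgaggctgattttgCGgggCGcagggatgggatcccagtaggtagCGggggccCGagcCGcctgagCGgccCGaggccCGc
Bsx: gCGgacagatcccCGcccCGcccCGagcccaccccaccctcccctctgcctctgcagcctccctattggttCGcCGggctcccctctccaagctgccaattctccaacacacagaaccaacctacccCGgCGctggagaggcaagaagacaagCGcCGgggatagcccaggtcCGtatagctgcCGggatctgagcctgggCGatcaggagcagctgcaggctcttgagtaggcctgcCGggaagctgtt
Pax8: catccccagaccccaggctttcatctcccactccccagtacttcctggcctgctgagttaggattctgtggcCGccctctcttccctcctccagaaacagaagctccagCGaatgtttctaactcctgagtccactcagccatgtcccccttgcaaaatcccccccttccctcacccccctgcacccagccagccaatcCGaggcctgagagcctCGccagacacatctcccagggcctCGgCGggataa
They held 20, 14, 30, 14 and 6 CG. These are examples and do not stand for their groups: of other genes below the filter, Nkx1-2 held 19, Six6 17 and Prrx1 4, and of other genes that rose in all 4, Pax9 held 7 and Lhx9 4. The median window of 16957 genes held 11; 95.6% of those windows held a CG. Only 56 of the 82 genes, 68.3%, had a sequence, so a comparison over the whole set is void.

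In water-injected late embryos few of these genes were expressed. Summed over the 82, they held 92.2 and 111 FPKM, and 37 and 27 of them were listed at 0. Meis2, a TALE cofactor, led with 33.8 and 33.1 FPKM. Gbx2, a gene of the anterior hindbrain, followed with 7.44 and 7.65, and Lhx8, needed for early follicles and forebrain cholinergic neurons, had 5.87 and 6.60. The libraries of these 3 genes did not overlap in level.

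**Figure D1:**
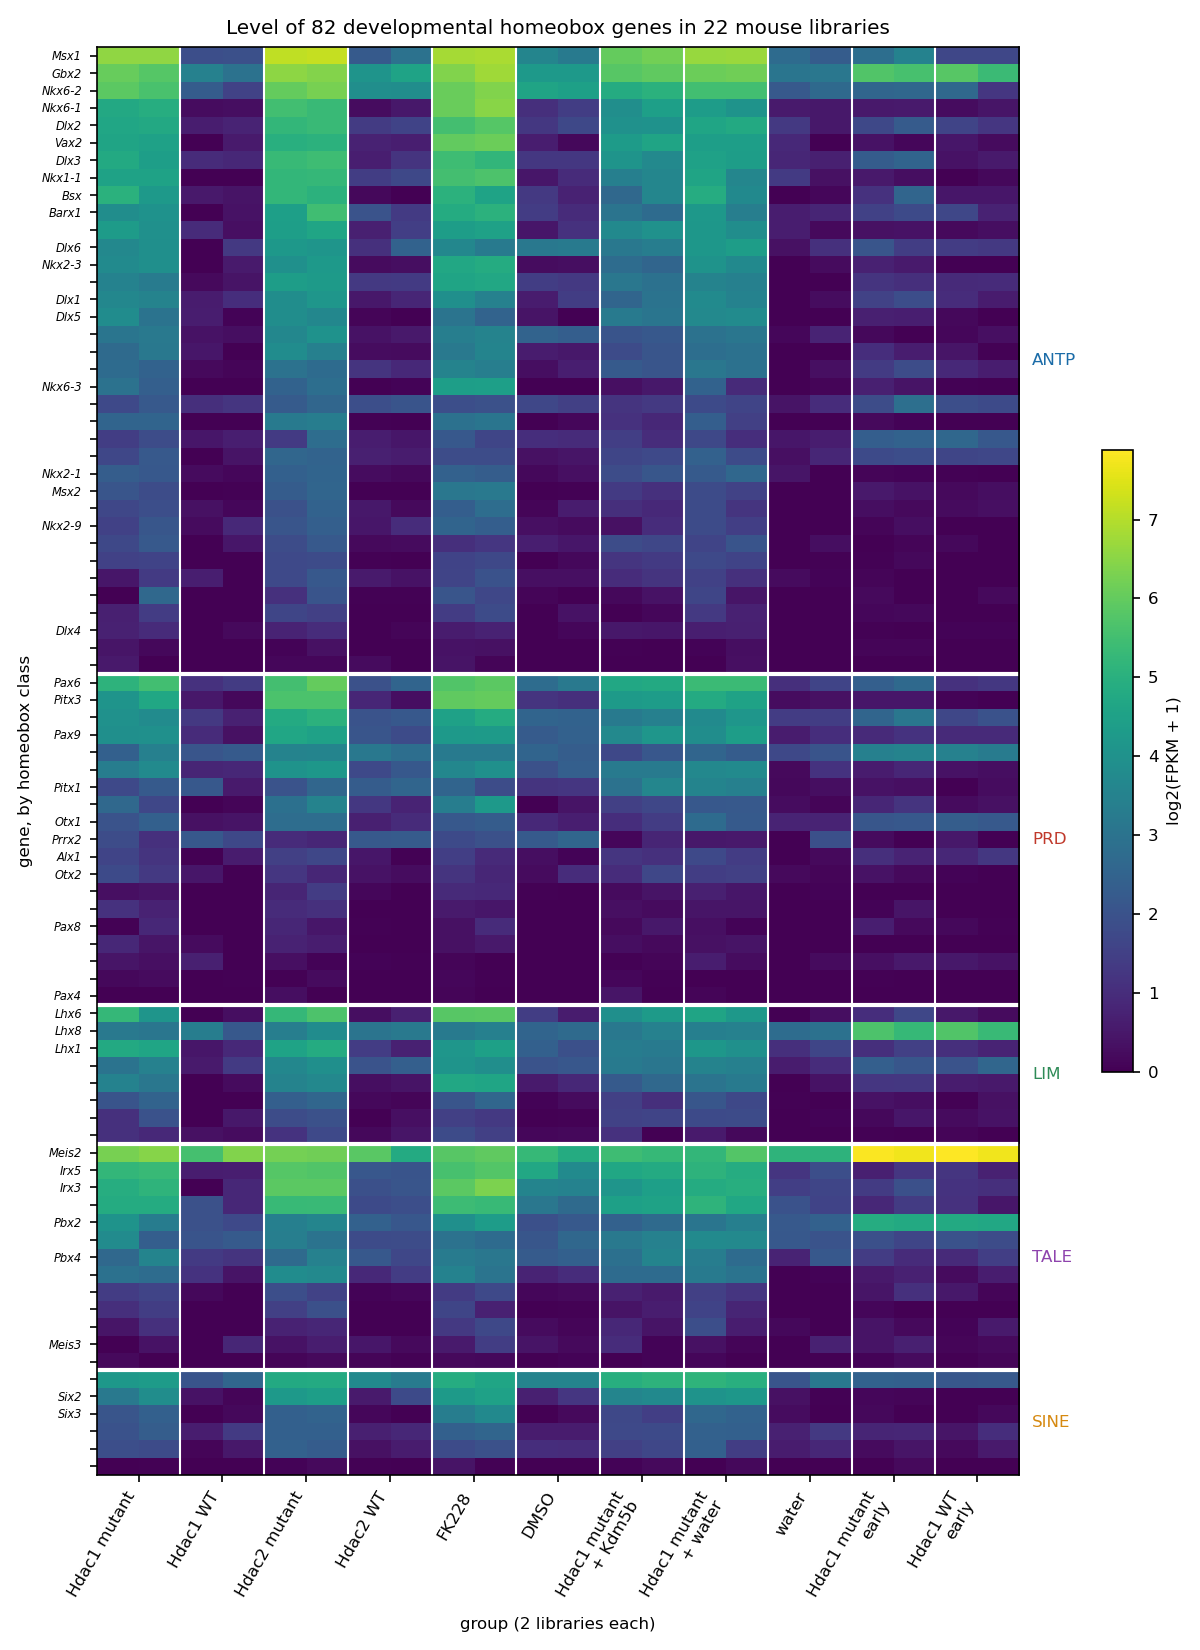
Level of the 82 genes (rows, by homeobox class) in the 22 mouse libraries (columns, 2 per group), as log2(FPKM + 1). A part of the rows carries a gene name. Rows are dark in water, WT and DMSO late embryos and lighter in mutant and FK228 embryos; Meis2, Lhx8 and Pbx2 are lightest in early embryos of both kinds.

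Most of these genes rose after mutant Hdac1 at the late 2-cell stage. Summed over the 82, they held 974 and 963 FPKM in Hdac1 mutant embryos against 114 and 142 in Hdac1 WT embryos. At least 1 FPKM was reached by 66 and 68 of the 82 genes in the mutant libraries and 17 and 17 in the WT libraries. Over all genes, 13474 and 14341 reached it in the mutant and 11284 and 11628 in the WT libraries. Of the 82, 62 were higher and 0 lower, 8 were tested and not called and 12 not tested. Of all genes tested, 30.5% were higher and 21.6% lower (limma on log2(FPKM + 1), Benjamini-Hochberg adjusted p under 0.05). In the WT libraries 34 and 23 of the 82 were listed at 0, and genes near 0 could hardly be called lower. The lower counts here and under the other filters are therefore description only. With no level filter 64 of 82 were higher and 0 lower (65 at an unadjusted p under 0.05 among those tested). No share of all genes is at hand for these 2 counts. The median log2 difference over all 82 was 1.88, against 0.02 over all genes. Where only water, WT and DMSO libraries set the filter, an alternative chosen after seeing the data, 36 of 40 were higher and 0 lower. Of the 13954 genes under that filter, 24% were higher and 26.7% lower.

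Msx1, a gene of teeth, skull and limbs (chromosome 5, 37820485 to 37824583, minus strand, GENCODE M21 on GRCm38, protein coding), had 95.1 and 94.2 FPKM in Hdac1 mutant and 2.75 and 2.78 in Hdac1 WT embryos, a log2 difference of 4.67 ± 0.23 (SE; adjusted p = 2.37e-09, limma). Irx5, of heart and retina, had 35.9 and 39.1 in mutant embryos and 0.557 and 0.595 in WT embryos. Nkx6-1, of pancreatic beta cells and motor neuron progenitors, had 25.8 and 28.9 in mutant and 0.2 and 0.23 in WT embryos. The mutant and WT libraries of these 3 genes did not overlap. Nkx1-1 had 22.2 and 22.1 in mutant embryos and was listed at 0 in both WT libraries. Pax6, the eye regulator, had 33.2 and 44.5 in mutant and 1.17 and 1.56 in WT embryos. Lhx6, of cortical interneurons, had 36.9 and 16.2 in mutant embryos and 0 and 0.228 in WT embryos, the widest spread between mutant libraries among the leading genes. Others of the leading 10 were Irx3, Vax2, Bsx and Pitx3, with log2 differences from 4.05 to 4.59. These fold changes understate the change of low genes. Irx3 overlaps the antisense gene Irx3os, which did not exceed 0.768 FPKM in Hdac1 mutant libraries; no strand-marking step is described, so such pairs cannot be told apart.

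Among the genes not called, Lhx8 had 8.17 and 7.5 FPKM in Hdac1 mutant and 9.23 and 3.48 in WT embryos, and Prrx2, of craniofacial mesenchyme, 2.56 and 1.11 against 3.53 and 2.30. Meis2, the most abundant of these genes in Hdac1 WT embryos, had 76.8 and 87.4 in mutant and 46.4 and 83.7 in WT embryos (adjusted p = 0.29).

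**Figure D2:**
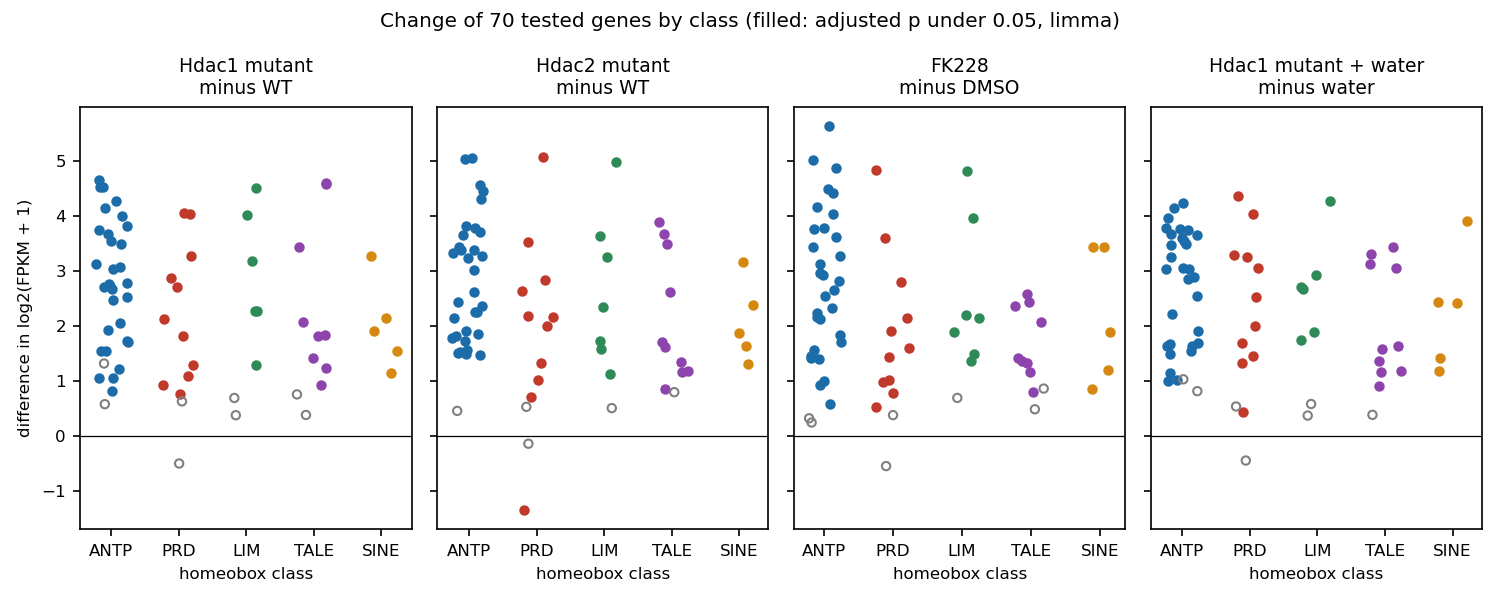
Difference in log2(FPKM + 1) for the 70 tested genes, by homeobox class, in the 4 late mouse comparisons. Filled points passed adjusted p under 0.05 and open points did not; nearly all lie above 0, up to 5.64 for Vax2 with FK228.

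The same 4 late comparisons were read side by side; none of them shares a library with another. Mutant Hdac2 against WT Hdac2 gave 64 genes higher and 1 lower, with 30.8% of all tested genes higher and 22.2% lower. FK228 against DMSO gave 63 higher and 0 lower, with 31% and 26.3% of all genes. Mutant Hdac1 plus water against water alone gave 63 higher and 0 lower, with 34.5% and 18.1%. Genes near 0 in the controls could hardly fall, so the lower counts are description only. Of the 82 genes, 55 rose in all 4 comparisons, and 19.9% of all genes tested did so; genes that passed the level filter through a disturbed group had to differ. With no filter, 56 of 82 members (68.3%) and 12.1% of 27988 genes were higher in all 4. Under the filter on control libraries, chosen after seeing the data, 30 of 40 members and 14.4% of 13954 genes were. Of those tested, Lhx8 and Prrx2 rose in none. Of the 100 genes with the largest log2 difference, 12 were homeobox members in the Hdac1 and 7 in the Hdac2 comparison. With FK228 there were 9, and after mutant plus water 6. Members were 0.404% of genes tested, but genes that passed the level filter only through a disturbed group could fill these ranks. The ranks are therefore description only.

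The summed level was 1341 and 1454 FPKM in Hdac2 mutant and 187 and 172 in Hdac2 WT embryos. It was 1421 and 1563 in FK228 and 232 and 213 in DMSO embryos. After mutant Hdac1 and a second injection of water it was 963 and 896, against 92.2 and 111 in water embryos. In each comparison both libraries of the disturbed embryos lay above both controls. The cumulus and granulosa sum was also higher, 22.6 and 29.97 FPKM in Hdac2 mutant against 2.71 and 6.30 in Hdac2 WT, and 17.8 and 21.6 in FK228 against 6.45 and 8.92 in DMSO embryos, and 12.8 and 11.1 after mutant Hdac1 plus water against 2.32 and 2.69 in water embryos; its part in the results was not tested.

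Pitx3, of midbrain dopaminergic neurons and the lens, had 49.6 and 49.1 FPKM in Hdac2 mutant and 0.814 and 0.222 in Hdac2 WT embryos, 5.08 ± 0.22 on the log2 scale. Its exons overlap those of Elovl3 on the other strand, whose highest level in Hdac2 mutant embryos was 3.53 FPKM. With FK228 the leading gene was Vax2, of the ventral retina, at 63.0 and 67.5 FPKM in FK228 and 0.565 and 0.125 in DMSO embryos, 5.64 ± 0.27 on the log2 scale. It had the largest log2 difference of all 17336 genes tested in that comparison. After mutant Hdac1 plus water, Six2, which keeps nephron progenitors, had 15.7 and 17.0 FPKM, against 0.274 and 0.0427 in water embryos. In each of these genes the libraries of the 2 groups did not overlap.

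Prrx2 was the 1 gene that fell, at 0.964 and 0.787 FPKM in Hdac2 mutant and 3.64 and 3.85 in Hdac2 WT embryos (−1.34 ± 0.45, adjusted p = 0.0199, limma). Its call was lost on leaving out any of the 4 libraries, with estimates from −1.41 to −1.27. Without the level filter, 64 genes were higher after mutant Hdac2, 63 with FK228 and 66 after mutant Hdac1 plus water. No share of all genes called is at hand for that setting. In the same order, the median log2 difference over all 82 was 1.87, 1.66 and 1.73. Over all genes it was 0.04, 0.03 and 0.07.

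By class, ANTP genes rose in 31 of 36 (Hdac1), 32 (Hdac2), 31 (FK228) and 31 (mutant plus water); their median log2 difference over all 36 ran from 2.40 to 2.71. Dlx2 and Dlx5, which shape interneurons and the jaw, had log2 differences of 4.02 and 3.05 in the Hdac1 comparison. SINE genes rose in 5 of 6 in each of the 4. TALE genes rose in 9 to 10 of 13 and LIM genes in 6 to 7 of 8. PRD genes rose in 10 to 11 of 19, with 6 of them under the filter, among them Pax4, of pancreatic endocrine cells, which did not exceed 0.374 FPKM. Pairs of members with starts under 100 kb apart numbered 8. In 5 of these, among them Dlx1 with Dlx2, Nkx2-1 with Nkx2-9, Nkx2-9 with Pax9 and Six2 with Six3, both genes rose in all 4 comparisons. Dlx3 rose in all 4; its neighbour Dlx4, under the filter at no more than 0.983 FPKM, was also higher in all 4 with no filter, by 0.63 to 0.84 on the log2 scale (adjusted p from 2.18e-05 to 0.000225, limma).

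**Figure D3:**
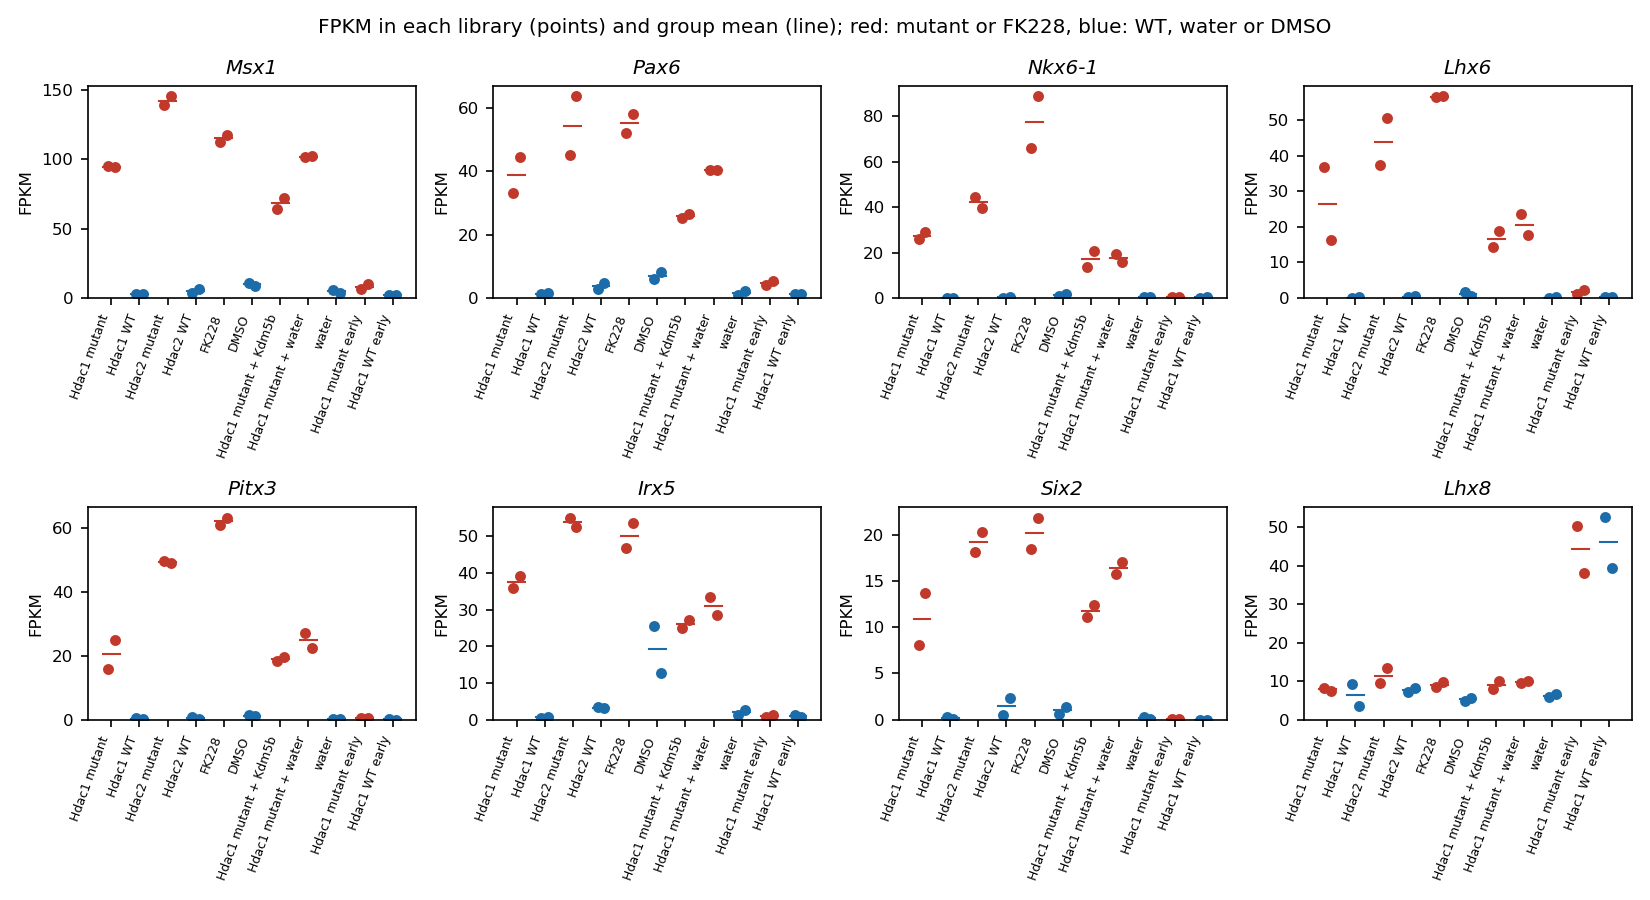
FPKM of 8 genes in each of the 22 mouse libraries (points) with the group mean (line). Msx1, Pax6, Nkx6-1, Lhx6, Pitx3 and Six2 are high in late mutant and FK228 embryos (red) and near the axis in WT, water and DMSO embryos (blue); Irx5 has DMSO libraries at 25.6 and 12.8, and Lhx8 is highest in early embryos.

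The size of the response differed between mutant Hdac1 and FK228 for some genes. The difference was called higher for mutant Hdac1 in 9 and lower in 4 of 82, against 4.76% and 2.2% of all genes tested. The control groups differed in level for several of them. Irx5 had 35.9 and 39.1 FPKM in Hdac1 mutant and 46.9 and 53.5 in FK228 embryos, but 0.557 and 0.595 in Hdac1 WT and 25.6 and 12.8 in DMSO embryos, so the log2 response was larger for mutant Hdac1 by 3.19 ± 0.40 (adjusted p = 0.00095, limma). The response of Nkx6-3, a gene of the gut, was larger for FK228: it had 6.78 and 4.22 in Hdac1 mutant and 20.2 and 20.7 in FK228 embryos, and was listed at 0 in both controls (−1.75 ± 0.49, adjusted p = 0.0447). That call was lost on leaving out any single library but Hdac1 mutant replicate 1. The counts were 4 higher and 0 lower without DMSO replicate 1, 5 and 1 without FK228 replicate 2, 5 and 2 without DMSO replicate 2, and 5 higher without FK228 replicate 1. Without Hdac1 WT replicate 2, 2 were lower. Between mutant Hdac1 and mutant Hdac2, 0 of the 82 differed in response, with 6 at an unadjusted p under 0.05 (0.0404% and 0.0635% of all genes were called, limma). Estimates ran from −1.03 to 1.57 with SE up to 0.82, so differences of that size are not shown to be absent.

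At the early 2-cell stage the same mutant changed few of these genes. Of 82, 3 were higher and 0 lower in Hdac1 mutant early embryos, with 0.231% and 0.329% of all genes called. An unadjusted p under 0.05 (limma) was reached by 14, with no share of all genes at hand for that threshold. Dlx3, of epidermis and placenta, had 3.90 and 4.79 FPKM in Hdac1 mutant and 0.304 and 0.481 in Hdac1 WT early embryos (1.94 ± 0.20, adjusted p = 0.000441). Msx1 had 6.25 and 10.3 in mutant and 2.19 and 2.23 in WT early embryos, and Pax6 had 4.22 and 5.48 against 1.19 and 1.43. The libraries of these 3 genes did not overlap between groups. The Pax6 call was lost on leaving out any of the 4 libraries, and the Msx1 call without mutant replicate 2 or either WT replicate, so 1 call was left then. The cumulus and granulosa sum was 7.31 and 8.47 FPKM in mutant and 12.8 and 17.4 in WT early embryos. The summed homeobox level was 453 and 435 in Hdac1 mutant and 438 and 373 in Hdac1 WT early embryos.

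The mutant effect was larger late than early for 55 of 82 genes and smaller for 0, against 21.2% and 15.2% of all genes. Hdac1 mRNA was higher in mutant than in WT embryos late and lower early, and its part in this difference was not tested. Irx5 had the largest such difference, 4.60 ± 0.40 (adjusted p = 1.87e-06): in early embryos it had 0.625 and 1.37 FPKM with mutant Hdac1 and 1.33 and 0.643 with WT Hdac1.

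In WT Hdac1 embryos, 16 of 82 genes were lower and 2 higher at the late than at the early stage, against 28.1% and 28.8% of all genes. The cumulus and granulosa sum was 0.477 and 1.95 FPKM in late and 12.8 and 17.4 in early WT embryos; its part in these values was not tested. Gbx2 had 9.92 and 6.76 FPKM in late and 56.2 and 40.8 in early embryos, and Lhx8 had 9.23 and 3.48 in late and 52.6 and 39.4 in early embryos. Pbx2, a partner of Hox proteins, had 2.87 and 2.36 in late and 26.5 and 25.3 in early embryos (−2.90 ± 0.24, adjusted p = 3.47e-08). These 3 and Otx1 had the largest decreases. Meis2 was the most abundant gene of the set, at 46.4 and 83.7 in late and 235 and 207 in early WT embryos. The 2 that were higher were Prrx2 and Pitx1; the Pitx1 call was lost without late replicate 1 or early replicate 1, and 4 were higher without late replicate 2.

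The WT mRNAs were also set against water. The summed level was 114 and 142 FPKM in Hdac1 WT and 187 and 172 in Hdac2 WT embryos, against 92.2 and 111 in water embryos. Hdac1 WT against water gave 0 higher and 1 lower (0.352% and 1.83% of all genes; 10 members reached an unadjusted p under 0.05), namely Irx3, at 0 and 0.821 FPKM against 1.78 and 2.14; that call was lost without WT replicate 1 or either water library, and 2 genes were higher without WT replicate 2 and 1 without water replicate 2. Hdac2 WT against water gave 12 higher and 0 lower, with 6.59% and 2.86% of all genes. Pitx1, of the pituitary and hindlimb, had 3.91 and 5 FPKM in Hdac2 WT and 0.129 and 0.215 in water embryos. The count was 5 without water replicate 1 and 6 without Hdac2 WT replicate 2.

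Kdm5b, a demethylase of histone H3 lysine 4, was injected into Hdac1 mutant embryos, and the summed homeobox level was lower there than after water. Kdm5b itself was at 594 and 638 FPKM after its mRNA and 61.3 and 74.0 after water, against 143 and 124 in embryos with water alone. The summed level was 625 and 696 FPKM with Kdm5b and 963 and 896 with water, against 92.2 and 111 in embryos with water alone. Of the 82 genes, 0 were higher and 3 lower with Kdm5b, against 0.415% and 0.629% of all genes. At an unadjusted p under 0.05 (limma), 32 were lower. At that threshold 1359 of all 17336 genes tested were lower, and 1035 of the 5281 genes called higher by mutant Hdac1. The cumulus and granulosa sum was 9.06 and 9.28 FPKM with Kdm5b and 12.8 and 11.1 with water; its part was not tested. Otx1, of the forebrain, had 1.03 and 1.63 FPKM with Kdm5b and 5.76 and 3.67 with water (−1.28 ± 0.22, adjusted p = 0.0164), Nkx2-3, of the spleen, 5.93 and 4.92 against 15.7 and 12.3, and Six3, of the forebrain and eye, 2.30 and 1.73 against 5.18 and 4.61. Each of these calls was lost on leaving out either Kdm5b library or water replicate 1, where 0 were left, and that of Six3 also without water replicate 2 and with the replicate number as a block (adjusted p = 0.0505).

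The 62 genes called higher by mutant Hdac1 in embryos without a second injection share no library with this comparison. Of these, 60 had a negative log2 difference with Kdm5b. So did 69.5% of the 5281 genes called higher by mutant Hdac1 and 52% of all genes tested. Both Kdm5b libraries lay below both water libraries for 50 of the 62. That held for 43.2% of the 5281 genes and 25.7% of all genes tested. The median difference of the 62 genes was −0.53, against −0.20 over the 5281 genes. Both Kdm5b libraries stayed above both libraries of water-only embryos for 59 of the 62, as they did for 88.2% of the 5281 genes.

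**Figure D4:**
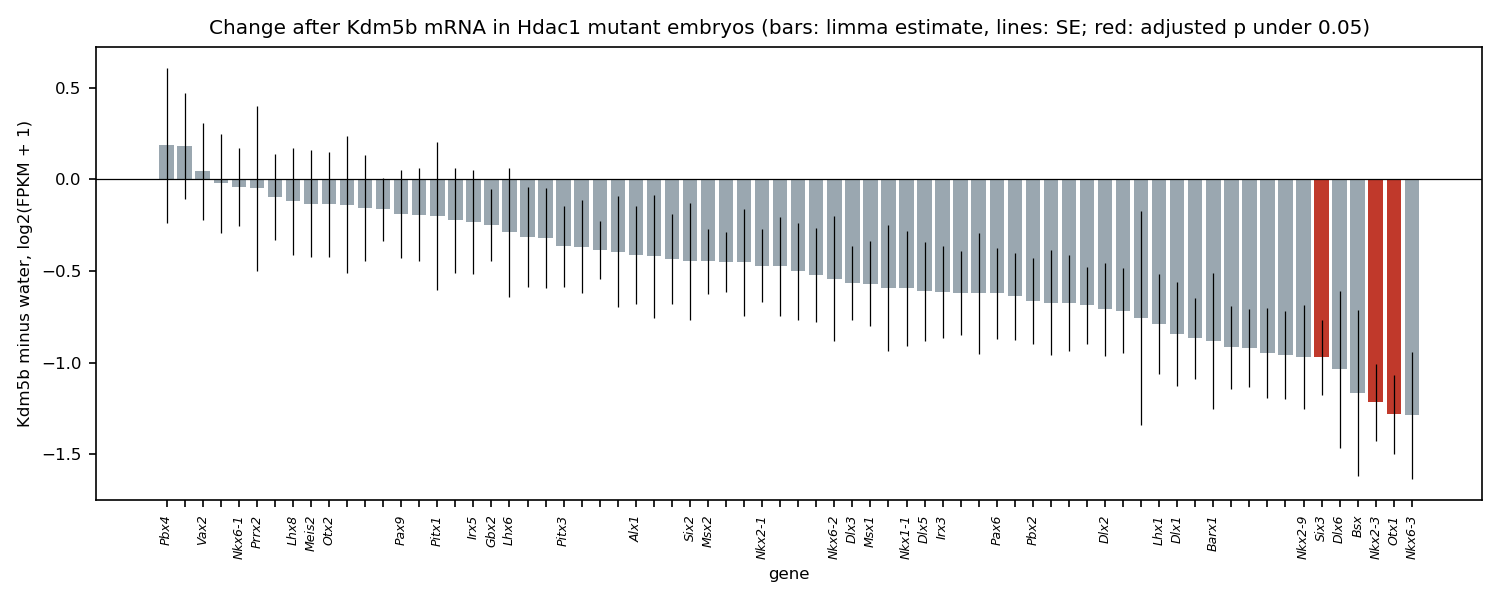
Difference in log2(FPKM + 1) between Kdm5b and water in Hdac1 mutant late embryos for the 70 tested genes, with SE; red bars passed adjusted p under 0.05, and a part of the bars carries a gene name. All but 3 bars lie below 0, from 0.19 for Pbx4 to −1.29 for Nkx6-3, which are named here for being the extremes. Of all genes tested, 52% had a negative difference.

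Other homeobox genes were read from 3 lists. Of 55 further developmental homeobox genes, 35 rose and 0 fell after mutant Hdac1, 37 and 0 after mutant Hdac2, 38 and 2 with FK228 and 42 and 0 after mutant Hdac1 plus water, with 47 tested; of all genes tested, 30.5% rose and 21.6% fell after mutant Hdac1. Their median log2 difference with no filter was 1.07 after mutant Hdac1, against 1.88 for the 82 genes. Of the 55, 12 were listed at 0 in both Hdac1 WT late libraries, and genes near 0 could hardly fall. Hmx1, of the eye and ear, had 30.8 and 30.02 FPKM in Hdac1 mutant and 0.976 and 0.272 in Hdac1 WT embryos. Of 25 widely expressed homeobox genes, 22 were tested, and 7 rose and 6 fell after mutant Hdac1, shares near those of all genes. Of 16 preimplantation and germline homeobox genes, 14 were tested, and 6 rose and 3 fell, too few to set apart from those shares. Obox6, expressed in oocytes and early embryos, had 11.6 and 20.4 in Hdac1 mutant and 133 and 114 in Hdac1 WT embryos (−2.92 on the log2 scale).

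Among 34 Polycomb subunits, 11 rose and 14 fell after mutant Hdac1, and 9 and 12 did so after mutant Hdac2. Of all genes, 30.5% rose and 21.6% fell after mutant Hdac1, and 30.8% and 22.2% did so after mutant Hdac2. The shares of subunits that rose lay near those of all genes, and the shares that fell lay above them. Epop, a partner of Polycomb repressive complex 2, had 70.6 and 94.3 FPKM in Hdac1 mutant and 1.97 and 1.1 in Hdac1 WT embryos. Of 18 cofactors of Dlx, SINE, Pax and LIM proteins 17 were tested, and 6 rose, a share near that of all genes, and 0 fell after mutant Hdac1. Lmo4, a LIM-only protein, and Ldb1, which binds LIM domains, had log2 differences of 2.60 and 1.65.

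Cattle embryos expressed more of these genes before any inhibitor. Of 60 genes tested in both species, the median DMSO level was 5.54 FPKM in cattle and 1.09 in mouse, and 19 in cattle and 6 in mouse reached 10 FPKM; stage and species differ together here. MSX1 had 134 and 224 FPKM in bovine DMSO embryos, OTX1 93.2 and 97.1, and BARX1, of the stomach, 76.9 and 102. The range of BARX1 takes in that of OTX1, so their order was not resolved.

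FK228 in cattle moved genes both ways. Of 79, 30 were higher and 9 lower, with 22.2% and 27.4% of all genes tested, and the summed level was 1453 and 1233 FPKM in FK228 and 994 and 1118 in DMSO embryos. The bovine cumulus and granulosa sum, over 11 genes, was 26.0 and 33.2 in FK228 and 30.2 and 57.8 in DMSO embryos. LHX1, of kidney and head, had 12.9 and 11.2 FPKM in FK228 and 1.13 and 0.79 in DMSO embryos (2.74 ± 0.22, adjusted p = 6.19e-05). LHX6 had 14.8 and 13.2 in FK228 and 1.4 and 1.23 in DMSO embryos. The higher genes were low in DMSO embryos in these examples, and the groups did not overlap.

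The largest decreases were of OTX1, PITX1, NKX2-8 and ALX1. OTX1 had 33.8 and 15.5 FPKM in FK228 and 93.2 and 97.1 in DMSO embryos (−2.0 ± 0.31, adjusted p = 0.00105). PITX1 had 8.87 and 7.52 against 30.5 and 29.6, NKX2-8 13.9 and 10.3 against 44.7 and 40.2, and ALX1, of the face, 18.4 and 25.8 against 76.8 and 63.5. OTX2 was called lower as well, and lost its call without FK228 replicate 2 or DMSO replicate 1. MSX1 had 236 and 175 in FK228 and 134 and 224 in DMSO embryos (adjusted p = 0.479). By class, 17 of 35 ANTP genes were higher and 4 lower, and 5 of 17 PRD genes were higher and 5 lower; no LIM, TALE or SINE gene was lower.

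Side by side with mouse, 28 of the 60 genes rose with FK228 in both species, 6 rose in mouse and fell in cattle, and 21 rose in mouse with no call in cattle. Of 9850 genes tested in both by shared symbol, 10.4% rose in both, 5.08% rose in mouse and fell in cattle, and 14.6% rose in mouse with no call in cattle. Genes could pass the filter through FK228 libraries: under the filter on control libraries, 13 of 30 members and 7.08% of 8359 genes rose in both. Those that fell in cattle and rose in mouse included OTX1 and ALX1. LHX6, with the second largest difference in cattle, was also among the leading genes in mouse, at 56.4 and 56.7 FPKM in FK228 and 1.68 and 0.522 in DMSO embryos.

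**Figure D5:**
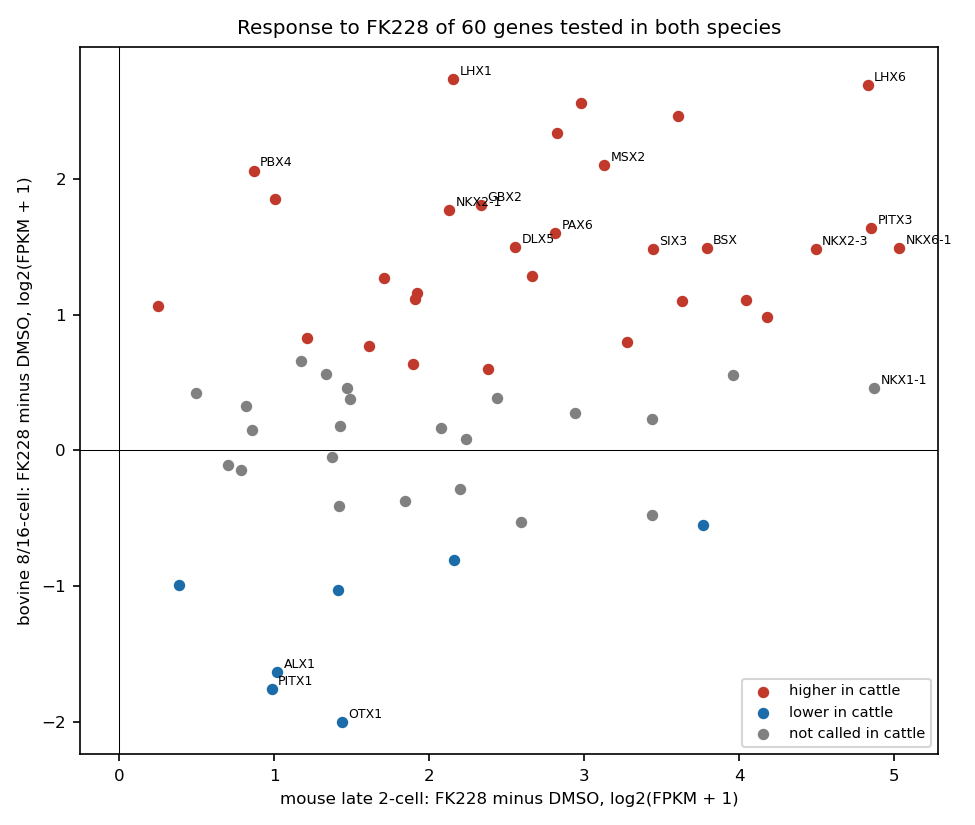
Difference in log2(FPKM + 1) with FK228 in bovine 8/16-cell embryos (vertical) against mouse late 2-cell embryos (horizontal) for 60 genes tested in both; red, higher in cattle, blue, lower, grey, not called. All points lie right of 0 in mouse, while those of cattle run from −2.0 (OTX1) to 2.74 (LHX1).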

How the data were processed

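The files hold FPKM per gene that the authors deposited as 1 table per species, with 22 mouse and 4 bovine libraries of polyA RNA. Per the submitters' processing notes, the builds were GRCm38 and ARS-UCD1.2 and the tools included HISAT2, Cufflinks, Trimmomatic, DESeq2 and featureCounts, with no versions or roles. Total read counts are unknown; steps of low values gave relative depths of 0.661 to 1.306 in mouse and 0.916 to 1.069 in cattle, but only 4.9% and 6.0% of low genes lay at the fitted ratio, so no counts were recovered.

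FPKM were taken as log2(FPKM + 1) and tested with limma 3.58.1 in R 4.3.3 (variance trend, two-sided, Benjamini-Hochberg over all tested genes, threshold 0.05), on genes with at least 1 FPKM in at least 2 libraries. All 22 mouse libraries shared 1 fit with 11 groups and 11 residual degrees of freedom; the bovine fit had 2. In all, 10 contrasts of 2 groups and 3 interactions were computed. Counts at an unadjusted p under 0.05 have no share of all genes beside them, except with Kdm5b, and are description only. Genes were named by rule: up to 10 called higher and 8 lower with the largest log2 difference in each of the 4 late mouse comparisons and cattle (4 and 4 elsewhere), where groups did not overlap and the higher mean reached 1 FPKM; genes averaging 5 FPKM in water or bovine DMSO embryos; genes higher after mutant Hdac1, mutant Hdac2 and FK228; linked pairs; and up to 4 per other list. The genes and the lists were chosen with earlier results of these data known. The fit was tested on simulated data. Positions are from GENCODE M21. Some genes that meet the naming rule are not reported here. Alternatives were another pseudocount (0.1), filter, scaling, fit per comparison, replicate block and leaving out each library.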

Additional observations from a re-analysis of the deposited data

Results flagged for a closer look

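The response to mutant Hdac1 differed between the late and the early 2-cell stage (limma, difference of the 2 log2 differences, late minus early) by 4.60 for Irx5, 4.37 for Vax2, 4.36 for Nkx6-1 and 4.20 for Nkx1-1. The responses to mutant Hdac1 and to FK228 in late embryos also differed by the test of their difference. It was larger for mutant Hdac1 by 3.19 for Irx5, 2.89 for Dlx6, 2.12 for Nkx6-2 and 1.99 for Irx3. It was larger for FK228 in Nkx6-3, at −1.75, Vax2, at −1.37, Six3, at −1.29, and Msx2, at −1.19.

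Some calls of that test were lost when 1 library was left out, with estimates of the same sign. The Dlx6 value was 2.68 without FK228 replicate 2, and that of Msx2 −1.17 without DMSO replicate 1. The Six3 value was −1.10 without FK228 replicate 2 and −1.19 without DMSO replicate 1. The Nkx6-2 call was lost without Hdac1 WT replicate 2, FK228 replicate 1 or either DMSO library, with values from 1.74 to 2.18. The Vax2 call was lost on leaving out any single library but Hdac1 WT replicate 1, with values from −1.60 to −1.08.

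The lower calls also depended on the scale and the fit. With a pseudocount of 0.1 the adjusted p was 0.227 for Nkx6-3, 0.743 for Vax2, 0.411 for Six3 and 0.164 for Msx2 (limma), and with a fit to the compared groups alone it was 0.082, 0.13, 0.129 and 0.104. Under the filter on control libraries these 4 genes were not tested. Nkx6-3 and Vax2 also lost their calls with no filter (0.0762 and 0.0587) and with median-ratio scaling (0.0585 and 0.0542), and Vax2 with quantile normalization (0.11). Of the higher calls, a fit to the compared groups alone ended those of Irx5 (0.0617), Dlx6 (0.09), Nkx6-2 (0.0719) and Irx3 (0.0951), and a pseudocount of 0.1 ended that of Dlx6 (0.0509). Nkx6-2 overlaps Inpp5a, and Dlx6 overlaps Dlx6os2, on the other strand, which cannot be told apart without strand.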

How the results depend on the processing

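Limits: with 2 libraries a group, an FPKM scale and unknown depth, small differences of low genes cannot be shown. No value reversed. Under a filter on control libraries alone, chosen after seeing the data, only 40 members were tested, so fewer could be called. Those called higher were 36 (Hdac1), 35 (Hdac2), 34 (FK228), 35 (mutant plus water) and 32 (late minus early). In the same order, 24%, 22.9%, 23%, 27.8% and 17.2% of 13954 genes were called higher. Lower calls were 1 with Kdm5b and 0 for Hdac1 minus FK228, against 0.193% and 1.18% of those genes. With a pseudocount of 0.1, lower calls were 0 after mutant Hdac2, 0 with Kdm5b and 0 for Hdac1 minus FK228; 5 were higher at the early stage, 6 late against early, and 3 higher and 3 lower for Hdac1 WT against water. With a minimum of 5 FPKM, 0 were lower after mutant Hdac2 and 1 higher late against early. With no filter, 0 were lower for Hdac1 WT against water and 2 for Hdac1 minus FK228; with quantile normalization 0 were lower for Hdac1 WT against water, and with median-ratio scaling 2 for Hdac1 minus FK228. Fitting only the groups compared gave 0 higher early, 4 higher late against early, 0 lower with Kdm5b, 0 lower for Hdac1 WT and 0 higher for Hdac2 WT against water, and 0 and 0 for Hdac1 minus FK228. Apart from what the construction shows, the cause was not tested.

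On leaving out 1 library, higher calls ran from 59 to 63 (Hdac1), 58 to 62 (Hdac2), 54 to 59 (FK228), 58 to 63 (mutant plus water), 49 to 56 (late minus early), 1 to 2 (early), 2 to 4 (late against early), 0 to 2 (Hdac1 WT), 5 to 14 (Hdac2 WT), 20 to 28 (cattle) and 4 to 8 (Hdac1 minus FK228). Lower calls ran from 0 to 1 (mutant plus water), 0 to 0 (Hdac2), 11 to 15 (late against early), 0 to 4 (Kdm5b), 0 to 1 (Hdac1 WT), 6 to 10 (cattle) and 0 to 5 (Hdac1 minus FK228). A lone library was assumed to vary like the others. The median over all tested genes was 0.17, 0.14, 0.15 and 0.25 unscaled in the 4 late comparisons. Replicate numbers share only a number (correlation of deviations from −0.0591 to 0.233); with the replicate number as a block, Six3 with Kdm5b lost its call (adjusted p = 0.0505), and 87 other named results kept theirs.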
